A study of Mus musculus with 6 samples.

Results

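The genes described here lie on the proximal part of mouse chromosome 7. They were listed because their levels were lower, as a set, in a tetraploid than in a diploid line of mouse embryonic fibroblasts. The list held 44 genes, of which 42 were measured, out of 19939 genes on the array. The study measured total RNA of embryonic fibroblasts, which are cultured connective tissue cells of the embryo, on 6 arrays. The 3 tetraploid arrays came from 1 line with abnormal DNA content, which the series title calls transformed, and the 3 diploid arrays from 1 line labelled as the normal control. Both lines were grown in DMEM with 10% fetal bovine serum to 80% confluence. No strain, embryonic age, allele or treatment was given for either line. Each ploidy was 1 line, so effects of DNA content, of transformation and of the line itself cannot be told apart. Nothing in the labels ties the arrays of a line to separate cultures. Errors and p-values therefore measure only the spread between these samples, which may be technical. Values are log2 signals, given for tetraploid arrays 1, 2 and 3 and then, after the word against, for diploid arrays 1, 2 and 3.

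In a tetraploid cell each autosome is present as a rule in 4 copies. If 1 of the 4 is lost and each remaining copy keeps its output, transcripts of that stretch stand at 3/4 of their former share, a log2 difference of -0.42. Single genes can depart from such a ratio because promoters and feedback set their output as well as copy number. No DNA was measured here, so the ratio serves as a yardstick for RNA levels and not as a copy count. Array values are relative to the other genes on the array and give no amount per cell, and fewer cells of a type cannot be told apart from less RNA per cell.

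All 9 fibroblast markers lay above background on every array. Pdgfra (1.39) and Dcn (0.46) were higher in the tetraploid line. The other 7 of the 9 were lower there, and the median difference was -0.80. In 5 all tetraploid values lay below all diploid values, as in 18.2% of all genes. In 1, Pdgfra, they all lay above, as in 19.1% of all genes. Col1a1 (-0.87, adjusted p = 0.0405) and Fn1 (-0.80, adjusted p = 0.0450) passed limma's test as lower. The part of this in the members' values was not tested. Background was set for each array at the 95th percentile of 1027 olfactory receptor genes, between 7.01 and 7.41 log2. Of the 9 macrophage markers, between 0 and 1 lay above it on the tetraploid arrays, and 1, 3 and 5 on diploid arrays 1 to 3. Of 19939 genes, 13.8% passed limma's test between the lines at a Benjamini-Hochberg adjusted p below 0.05. Of all genes, 7.75% passed it as lower in the tetraploid line and 6.08% as higher.

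The members were chosen on the difference between the lines, so their differences are given as a description and carry no test. Of the 42 measured genes, 29 had a difference below 0 (tetraploid minus diploid), where 45.2% of all genes and 44.9% of well-expressed genes did (well-expressed meaning a mean above the median of all genes). Their median difference was -0.53, with quartiles of -0.98 and 0.05, against 0.066 over all genes. In 25 of them all 3 tetraploid values lay below all 3 diploid values, as in 18.2% of all genes. In 5 the tetraploid values all lay above, as in 19.1% of all genes, and in 12 the lines overlapped. Limma's threshold was passed by 8 members as lower, against 7.75% of all genes, and by 2 as higher, against 6.08%. The 2 higher were Map4k1, below background on every array, and Cyp2f2, above it on 1, and of the 34 well-expressed members 0 passed as higher. The eBayes trend, either filter on low values and values raised to background gave 16 to 20 lower members. The count of lower members was 4 without any 1 diploid array and 5 without tetraploid array 2. The count of higher members was 1 without any 1 diploid array or tetraploid array 2.

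Each tetraploid array was lower than the diploid mean over the members. The median shift was -0.43 on tetraploid array 1, -0.76 on array 2 and -0.36 on array 3. For the diploid arrays, each set against the other 2, it was -0.06, -0.05 and 0.08. The tetraploid arrays lay outside the range of the diploid ones, which the choice of members favours, and array 2 lay farthest out. Over all genes the median shifts were 0.05, 0.10 and 0.05 on tetraploid arrays 1 to 3. On array 1, 31 of the 42 members lay below their diploid mean, on array 2, 32 and on array 3, 28. Without tetraploid array 2 the median difference was -0.37.

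The order of the 3 tetraploid arrays was also uneven. The members were chosen on a difference that holds these 3 values, so their order is not independent of the choice. Array 2 had the lowest of the 3 values in 30 of 42 members (71.4%), against 30.5% of the well-expressed genes on other chromosomes. Array 3 had the highest in 25 of 42 (59.5%), against 24.6%. The 119 well-expressed genes of the same stretch that are no members showed the same leaning, with array 2 lowest in 48.7% and array 3 highest in 54.6%. So did the 493 well-expressed genes between the last member and the end of the chromosome, with 47.3% and 56.2%. In the 70 well-expressed genes before the first member the shares were 44.3% and 45.7%, although the median shift there was lowest on array 1 (-0.19, against -0.17 on array 2). Genes of chromosome 7 outside the list thus leaned the same way. The order was not limited to chromosome 7. In 30 well-expressed genes from Cox20 to Capn2 on chromosome 1, the median shifts were -0.75, -0.95 and -0.61 on tetraploid arrays 1 to 3. From Fuca1 to Iffo2 on chromosome 4 the order differed, with -0.57, -0.59 and -0.74.

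**Figure D1:**
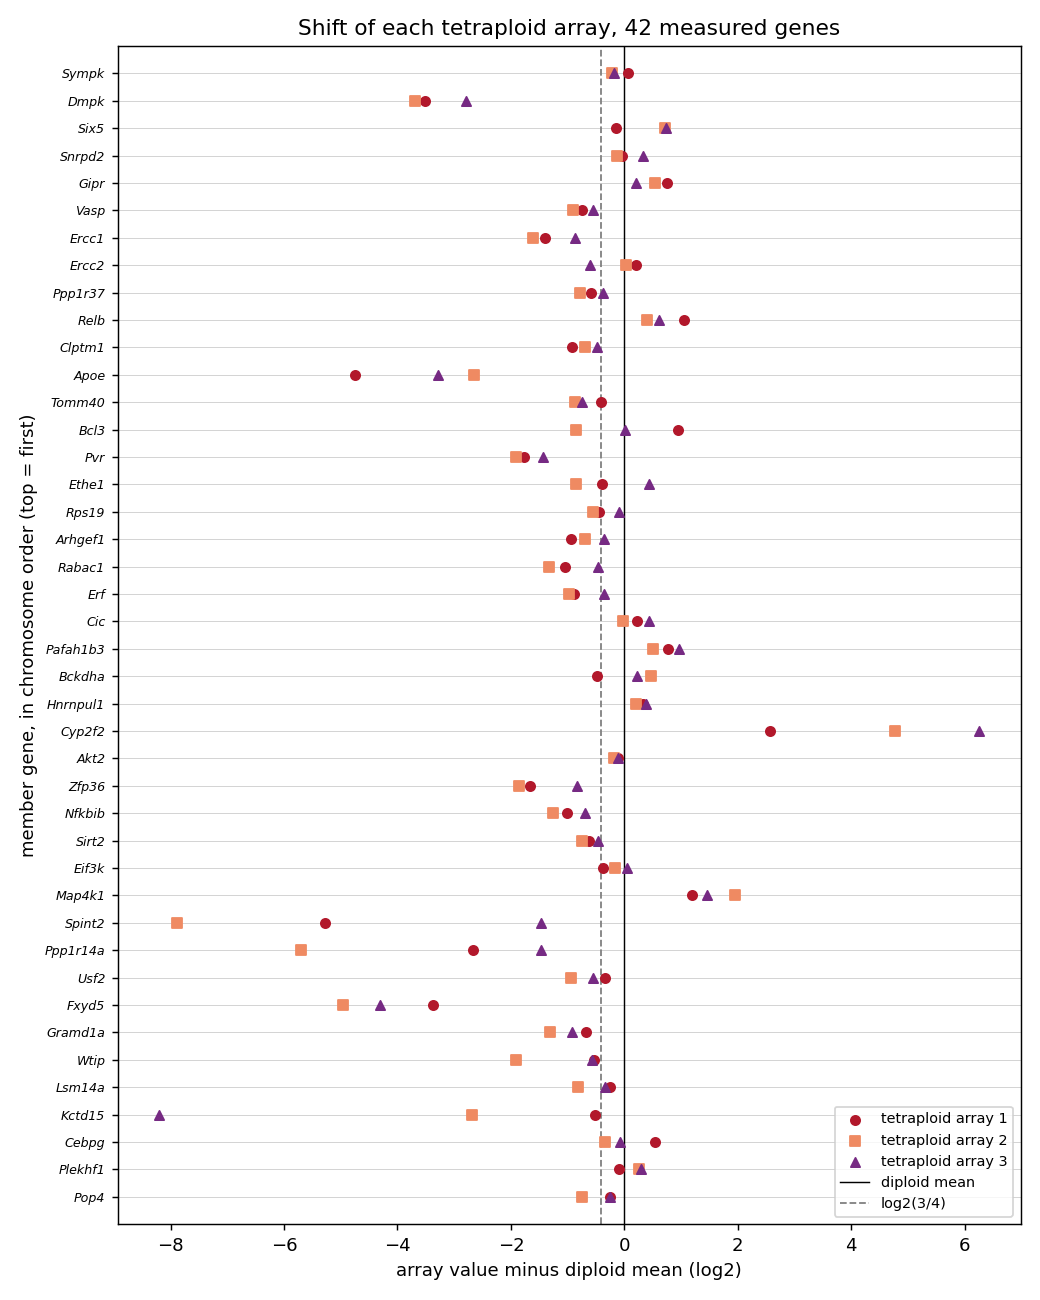
Shift of each tetraploid array against the diploid mean (x axis, log2) for the 42 measured members in chromosome order (y axis); circles, squares and triangles are arrays 1, 2 and 3, the solid line is the diploid mean and the dashed line log2(3/4). Of the 126 points 91 lie left of the solid line, 61 of them no farther than -1. Spint2, Fxyd5, Apoe, Dmpk, Ppp1r14a and Pvr lie beyond -1 on all 3 arrays, and Cyp2f2 lies far to the right.

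Read against the ratio, the members came into 5 classes by the 95% interval of their difference in the limma fit. The interval held -0.42 and not 0 in 10 genes, both values in 13, and 0 but not -0.42 in 5. It lay wholly below -0.42 in 10 genes and wholly above 0 in 4. Over all genes these shares were 7.61%, 49.7%, 20.9%, 7.39% and 14.4%. Among well-expressed genes, 10.5% had an interval holding -0.42 and not 0. Values below background entered some classes. Spint2 and Ppp1r14a, wholly below -0.42, stood at -0.59 and -0.74 with values raised to background. Map4k1 and Cyp2f2, wholly above 0, were above background on no array and on 1. With values raised to background, 15 intervals held -0.42 and not 0 and 9 lay wholly below it. Only 7 of the 42 point estimates lay within 0.2 of -0.42, close to the 15.8% of all genes that did. The members therefore did not gather at the ratio: some stood near it, some far below and some at or above the diploid level.

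**Figure D2:**
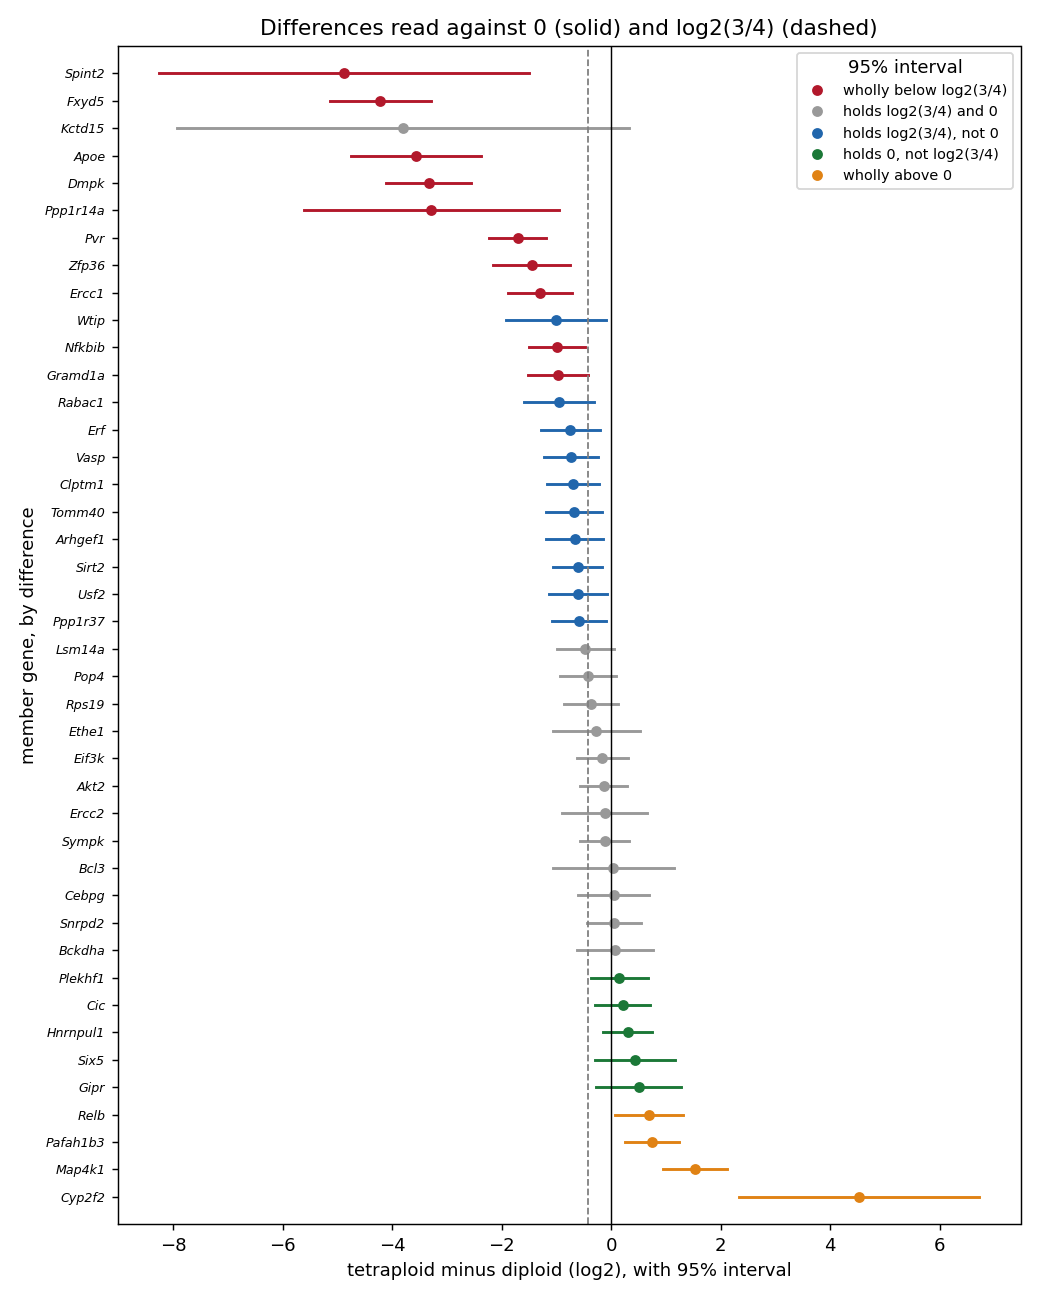
Tetraploid minus diploid difference (log2, x axis) of each measured member with its 95% interval from limma, ordered by difference; the solid line marks 0 and the dashed line log2(3/4), and colour gives the class of the interval. The 10 blue genes between Wtip (-1.01) and Ppp1r37 (-0.58) hold the ratio and not 0, and the 10 red genes lie wholly below it.

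The 10 genes whose interval held the ratio and not 0 were Wtip, Rabac1, Erf, Vasp, Clptm1, Tomm40, Arhgef1, Sirt2, Usf2 and Ppp1r37. Their differences ran from -1.01 to -0.58, so every point estimate lay below the ratio, and their median was -0.69. Sirt2, a cytoplasmic deacetylase of tubulin and other proteins, stood at 9.73, 9.61 and 9.89 against 10.44, 10.39 and 10.24. The lines did not overlap, and the difference was -0.61 ± 0.19 (SE, n = 3 per line), or 65.5% of the diploid level. Clptm1, a membrane protein gene near Apoe, stood at 9.97, 10.21 and 10.41 against 10.93, 10.91 and 10.84. Its difference was -0.70 ± 0.20 (SE). Tomm40, which encodes the channel of the mitochondrial import pore, stood at 9.98, 9.53 and 9.64 against 10.41, 10.24 and 10.54. Its difference was -0.68 ± 0.21 (SE). In all 10 of these genes every tetraploid value lay below every diploid value, as in 18.2% of all genes. An interval wholly below 0 already makes this likely, so the count adds no support.

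The 4 members nearest to the ratio were Pop4, Lsm14a, Rps19 and Ethe1, and none of them could be told from 0. Pop4, a protein subunit of RNase P and RNase MRP, stood at 7.90, 7.41 and 7.90 against 8.20, 8.06 and 8.21. The difference of -0.42 ± 0.22 (SE) left 74.8% of the diploid level, with an interval from -0.93 to 0.09. Lsm14a, which acts in mRNA storage and decay bodies, stood at 10.23, 9.67 and 10.16 against 10.44, 10.46 and 10.57. Both genes were lower on all 3 tetraploid arrays, array 2 lowest. Rps19, a protein of the small ribosomal subunit, stood at 9.83, 9.73 and 10.18 against 10.22, 10.39 and 10.21. Ethe1, a mitochondrial sulfur dioxygenase gene, stood at 7.53, 7.07 and 8.35 against 7.76, 7.98 and 8.02. Ethe1 overlapped between the lines, with tetraploid array 3 above every diploid array.

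Of the 6 lowest members, 5 had intervals wholly below the ratio of 3 copies to 4, and Kctd15, with the widest spread, did not. Fxyd5, a small membrane glycoprotein that modulates the sodium pump, stood at 7.87, 6.29 and 6.93 against 11.33, 11.14 and 11.28. Its difference was -4.22 ± 0.39 (SE), or 18.6-fold lower, and 13.3-fold lower with values raised to background, since only 1 tetraploid array was above it. Apoe, which encodes the lipid carrier apolipoprotein E, stood at 4.17, 6.27 and 5.62 against 9.02, 8.75 and 8.96. Dmpk, the kinase gene whose repeat expansion causes myotonic dystrophy, stood at 6.22, 6.05 and 6.93 against 9.52, 10.24 and 9.45. Both were below background on all tetraploid arrays, so that Apoe was at least 3.08-fold lower and Dmpk at least 5.45-fold lower. These bounds set every value below background to it.

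Apoe is abundant in macrophages as well as in fibroblasts, and macrophage markers differed between the arrays. The mean of the 9 macrophage markers was 4.28, 4.31 and 4.16 against 5.07, 6.45 and 7.33. Lyz2, the lysozyme gene of macrophages, stood at 4.58, 3.63 and 0.44 against 6.48, 9.32 and 9.98. Adgre1, Itgam, Ptprc and Tyrobp were below background on all 6 arrays. Cd68 was above it on all 3 diploid arrays and 1 tetraploid array, Fcer1g on 2 diploid arrays, Laptm5 on 1, and Csf1r on 1 of each line with a difference of 0.18. The part of such cells in the Apoe difference was not tested.

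Spint2, Kctd15 and Ppp1r14a varied more between the tetraploid arrays than the other low members. Spint2, a surface inhibitor of serine proteases, stood at 2.60, 0 and 6.41 against 7.73, 8.36 and 7.56. The value of 0 is the lowest the deposited table holds. Ppp1r14a, an inhibitor of myosin phosphatase found in smooth muscle, stood at 5.36, 2.33 and 6.57 against 7.79, 8.51 and 7.80. Both lay below background on every tetraploid array, with lower bounds of 1.51-fold and 1.68-fold. Kctd15, a regulator of AP-2 transcription factors, stood at 7.69, 5.54 and 0.01 against 7.91, 8.13 and 8.60. Its interval reached from -7.92 to 0.32, its lowest value was on tetraploid array 3, and no order among these 3 genes can be read from values below background. Spint2 is typical of epithelium. Of 6 epithelial markers, 3 had a difference below 0 and the median was -0.03. Krt18 alone passed limma's test (adjusted p = 0.0182), at 4.59, 3.00 and 4.39 against 6.72, 8.99 and 7.03. It was below background on all tetraploid arrays and on diploid array 1. With values raised to background it was 1.37-fold lower, which is no lower bound, since diploid array 1 was raised too. Epcam (0.42), Cldn4 (0.31) and Cdh1 (0.024) lay above 0, and the part of such cells in the Spint2 difference was not tested.

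A second group of low members was above background on every array of both lines, Pvr by little on the tetraploid arrays. Pvr, the poliovirus receptor and an adhesion molecule of the nectin family, stood at 7.92, 7.80 and 8.26 against 9.90, 9.50 and 9.70. Its difference was -1.71 ± 0.22 (SE), or 3.26-fold lower. Zfp36, which binds and destabilises mRNAs of cytokines and early response genes, stood at 8.72, 8.53 and 9.55 against 10.37, 10.26 and 10.52, or 2.74-fold lower. Ercc1, the partner of the Ercc4 nuclease in excision repair, stood at 9.57, 9.34 and 10.08 against 11.06, 10.81 and 11.00, or 2.45-fold lower. In all 3 genes array 2 was lowest and array 3 nearest to the diploid level. Nfkbib, an inhibitor of NF-kappaB, was 1.98-fold lower, and Gramd1a, a sterol transfer protein gene, 1.96-fold lower. The intervals of both lay wholly below the ratio of -0.415, but narrowly, with upper ends at -0.471 and -0.421.

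At the other end, 4 members had intervals wholly above 0. Pafah1b3, a catalytic subunit of an acetylhydrolase of platelet-activating factor, stood at 9.97, 9.71 and 10.18 against 9.13, 9.35 and 9.15. The lines did not overlap, and the difference was 0.75 ± 0.21 (SE), or 1.68-fold higher. Relb, a subunit of NF-kappaB, stood at 8.88, 8.23 and 8.44 against 8.04, 7.46 and 7.98, and was 1.61-fold higher. Map4k1, a kinase of blood cells, stood at 6.33, 7.10 and 6.61 against 5.09, 5.05 and 5.30. It lay below background on all 6 arrays and has no fold. Cyp2f2, a cytochrome P450 gene of lung and liver, stood at 4.28, 6.48 and 7.98 against 0.86, 2.75 and 1.55. Only tetraploid array 3 lifted it above background. With values raised to background it was 1.28-fold higher, which is no lower bound, since tetraploid arrays 1 and 2 were raised too.

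Of the 6 highest members, Six5 and Gipr stayed within the spread. Six5, a homeobox gene beside Dmpk, stood at 7.37, 8.23 and 8.26 against 7.21, 7.56 and 7.78, which overlap. Gipr, the receptor for the gut hormone GIP, stood at 6.51, 6.29 and 5.96 against 6.14, 6.03 and 5.09, below background on all arrays. Dmpk and Six5 are neighbours, with Dmpk at -2.45 when raised to background and Six5 at 0.44. Apoe and Tomm40 are neighbours too, at -1.62 when raised to background and -0.68.

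Promoter sequence was a property that the choice of members did not use. RefSeq entries of build GRCm38.p6 were matched for 37 of the 42 measured members. 4 of them are printed, each the 250 bases before the gene start. They are Fxyd5 and Dmpk, the lowest members with a single entry when values are raised to background, Pop4, the nearest to the ratio, and Six5, the highest such member with an entry. Dmpk and Six5 are neighbours at opposite ends of this order, which is why both are shown. Each runs 5′ to 3′ toward the gene start, and capitals mark CG dinucleotides, the sites of vertebrate DNA methylation, which are dense in promoters of broadly active genes.
Fxyd5 (GRCm38.p6 chr7:31042332-31042581, minus strand): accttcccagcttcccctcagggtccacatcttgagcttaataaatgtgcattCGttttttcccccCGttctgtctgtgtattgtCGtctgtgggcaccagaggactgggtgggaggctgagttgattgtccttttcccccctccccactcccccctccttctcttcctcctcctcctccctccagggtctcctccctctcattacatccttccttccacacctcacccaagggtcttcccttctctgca
Dmpk (GRCm38.p6 chr7:19083608-19083857, plus strand): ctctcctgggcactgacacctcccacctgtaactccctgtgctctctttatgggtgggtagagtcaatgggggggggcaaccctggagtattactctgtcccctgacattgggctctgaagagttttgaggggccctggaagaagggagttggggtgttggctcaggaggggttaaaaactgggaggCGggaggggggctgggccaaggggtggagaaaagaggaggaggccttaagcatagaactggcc
Pop4 (GRCm38.p6 chr7:38271349-38271598, minus strand): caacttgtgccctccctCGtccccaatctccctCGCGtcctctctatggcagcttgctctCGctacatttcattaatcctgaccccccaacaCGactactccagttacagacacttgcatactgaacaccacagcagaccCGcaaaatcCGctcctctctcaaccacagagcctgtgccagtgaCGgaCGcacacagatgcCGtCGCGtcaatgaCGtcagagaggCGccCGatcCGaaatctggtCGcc
Six5 (GRCm38.p6 chr7:19094294-19094543, plus strand): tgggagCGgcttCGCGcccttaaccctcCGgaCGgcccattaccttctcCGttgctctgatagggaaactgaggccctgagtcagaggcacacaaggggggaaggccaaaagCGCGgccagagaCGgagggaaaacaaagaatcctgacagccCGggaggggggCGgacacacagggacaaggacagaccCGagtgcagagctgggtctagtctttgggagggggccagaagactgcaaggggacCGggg

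The Pop4 window held 17 CG dinucleotides, a count reached by 23.2% of genes with an entry, and that of Six5 13, reached by 31.8%. The Fxyd5 window held 3, reached by 70.9%, and that of Dmpk 1, reached by 91.9%. Over the 37 members the median count was 18, against 11 over the 15613 measured genes with an entry, and the median GC content was 58.4% against 56.6%. A GC box, GGGCGG on either strand, was found in 24 of 37 (64.9%, against 49.3% of measured genes). CCAAT was found in 13 (35.1%, against 38.8%), TATAAA in 1, Apoe (2.70%, against 12.5%), and the E-box CACGTG in 4, Cic, Eif3k, Rps19 and Map4k1 (10.8%, against 8.11%). These searches took all entries of a gene together and both strands. Most members were well expressed, while the measured genes used for comparison were taken at any level. Of these, 561 of 3209 were well expressed in the lowest of 5 bins of promoter GC content, and 2152 of 3002 in the highest. Whether the members differ from well-expressed genes in CG count, GC content or these motifs was not tested.

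GC content moved weakly with the difference over the whole array. Well-expressed genes in the lowest of 5 bins of promoter GC content had a median difference of 0.16 and those in the highest -0.013. Over the 37 members with an entry the median difference was -0.58 as measured and -0.66 with the median of its own bin subtracted from each gene. Over the 253 other genes of the stretch with an entry it was -0.11 and -0.16.

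By role, members of the same pathway did not move as units. Of the 3 NF-kappaB genes, Nfkbib lay at -0.99, Bcl3, an atypical coactivator, at 0.041 and Relb at 0.69. Of the excision repair pair, Ercc1 lay at -1.30 and the helicase gene Ercc2 at -0.12. Among the 5 transcription factor genes, Erf (-0.74), a repressor in the ERK pathway, and Usf2 (-0.61), an E-box binding factor, were lower. Cebpg (0.045), Cic (0.21) and Six5 (0.44) were not. Of the 6 genes of RNA processing and decay, 4 were below 0, from Zfp36 (-1.45) over Lsm14a (-0.47) and Pop4 (-0.42) to Sympk (-0.12), a scaffold of mRNA 3' end cleavage. Hnrnpul1 (0.30), an RNA-binding nuclear protein gene, and Snrpd2 (0.05), a core protein of the splicing snRNPs, were above 0, and Hnrnpul1 did not overlap between the lines.

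Genes of the cytoskeleton and of signalling lay mostly low, with 7 of 8 below 0. Wtip (-1.01), a LIM-domain protein of cell junctions, Vasp (-0.73), which elongates actin filaments, Arhgef1 (-0.66), an exchange factor for RhoA, and Ppp1r37 (-0.58) all had intervals that held the ratio and not 0. Akt2 (-0.14), a kinase of the insulin pathway, had values of 9.96 to 10.03 on the tetraploid and 10.06 to 10.27 on the diploid arrays. Its probe set had a place among probe sets of chromosome 11 in 19 of 20 neighbours by number, and the one placed on chromosome 7 gave a difference of 0.029. The probe set used for Snrpd2 likewise sat among chromosome 10 probe sets (20 of 20), and the one on chromosome 7 gave 0.08. Whether these 2 probe sets also read copies elsewhere in the genome was not tested. The other 40 measured members sat among chromosome 7 probe sets.

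The translation genes Eif3k (-0.16), a subunit of an initiation factor, and Rps19 (-0.36) were slightly low. Of the 5 metabolic genes 2, Tomm40 and Ethe1, were below 0. Bckdha (0.071), a subunit of the enzyme that breaks down branched-chain keto acids, Pafah1b3 (0.75) and Cyp2f2 were above it. Of the membrane genes, Rabac1 (-0.95), a Rab-binding Golgi protein gene, Gramd1a (-0.97), Clptm1 and Apoe lay low, and the endosomal gene Plekhf1 (0.15) did not. Uba2, the SUMO-activating enzyme subunit, had no single-gene probe set, and the probe sets of the cell death gene Pdcd5 were shared with a second symbol. These 2 genes are not analysed here.

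The next comparison set the members beside the genes they lie among. Between Sympk, the first member, and Pop4, the last, 289 other genes were measured, with a median difference of -0.10. Of these, 119 were well expressed, with a median of -0.34, against -0.53 for the 34 well-expressed members and 0.10 for 9236 well-expressed genes on other chromosomes. Of the 119, 27 (22.7%) passed limma's test as lower, against 8.82% of all well-expressed genes. Among the 289, 36 passed limma's test as lower (12.5%, against 7.75% of all genes) and 6 as higher (2.08%, against 6.08%). The stretch was part of the choice, so these shares too are a description. The count of lower genes was 10 without diploid array 1, 10 without diploid array 2, 9 without diploid array 3, 18 without tetraploid array 2, and 16 with the replicate number as a block. The count of higher genes was 2 without diploid array 1 or 3. It was 3 when diploid array 2 or either of tetraploid arrays 2 and 3 was left out. With every value raised to background the median of the 289 genes was 0.12, the difference between the background levels themselves.

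Of the 91 other genes of the stretch above background on all 6 arrays, the 5 lowest were Tgfb1, Garre1, Plekhg2, Nectin2 and Plaur. Tgfb1, the growth factor gene, stood at 9.11 ± 0.73 in the tetraploid and 11.11 ± 0.071 in the diploid line (SD, n = 3). Garre1 lay at -1.82 ± 0.22 (SE). Plekhg2 (-1.44), the adhesion gene Nectin2 (-1.43), which neighbours Tomm40, and the urokinase receptor gene Plaur (-1.40) followed. The 5 highest were the matrix gene Ltbp4 (1.51 ± 0.38, SE), the biliverdin reductase gene Blvrb (1.20 ± 0.22), Ech1 (0.58), Clip3 (0.57) and the DNA repair gene Xrcc1 (0.55). As among the members, genes far below the ratio and genes above the diploid level lay side by side.

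Lower medians were also found beyond the stretch that the members span, but hardly in the genes nearest after it. Over the 493 well-expressed genes of chromosome 7 beyond Pop4 the median was -0.33, against -0.34 for the other genes within the span. Over the 70 before Sympk it was -0.14, in the 30 well-expressed genes nearest before it -0.13 and in the 30 nearest after Pop4 -0.01. Set against genes on other chromosomes, these medians were -0.44 within the span, -0.43 beyond it and -0.24 before it. Chromosome 7 as a whole had the lowest median of the 19 autosomes and X, -0.32 over 716 well-expressed genes. Its shifts were -0.36, -0.41 and -0.17 on tetraploid arrays 1 to 3. The name of a lowered proximal region thus covers only some of the lowered genes of this chromosome.

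**Figure D3:**
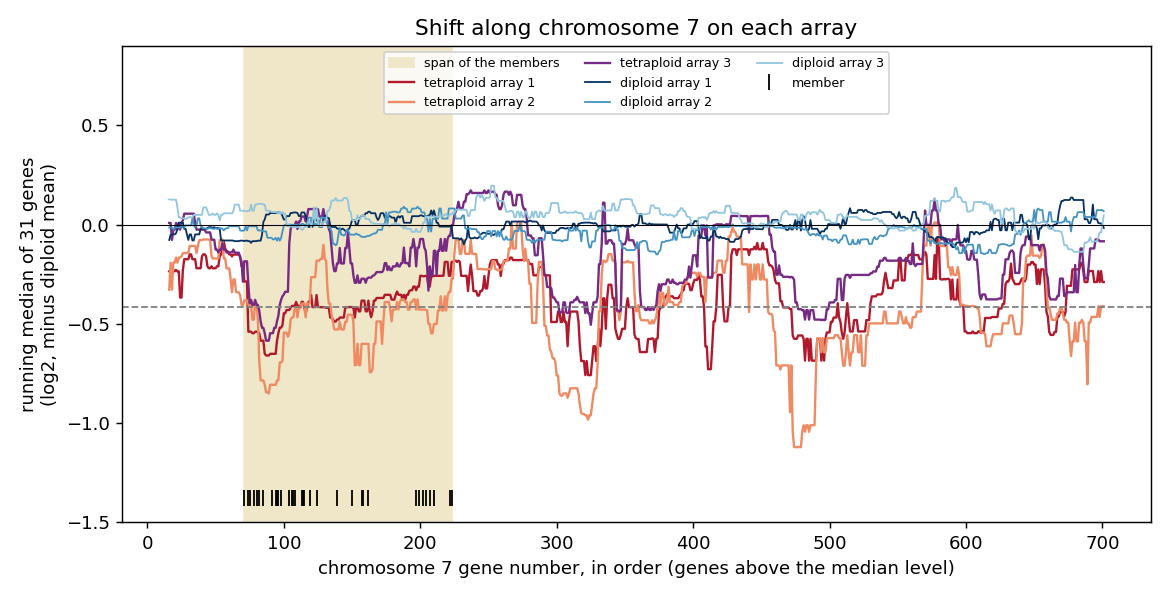
Running median over 31 consecutive well-expressed genes of chromosome 7 (y axis, log2 shift against the diploid mean) by gene number along the chromosome (x axis), for each of the 6 arrays; the shaded band is the span from Sympk to Pop4, ticks mark members and the dashed line is log2(3/4). The 3 diploid arrays stay near 0, and the tetraploid arrays dip within the band and again beyond it, with array 3 back near 0 in places.

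In blocks of 30 or more consecutive well-expressed genes, those from Strn4 to Trappc6a and from Med29 to Polr2i were the lowest of the 6 that hold members, both at -0.46. They ranked 12 and 13 from the lowest of 321 blocks over the 19 autosomes and X. The block from Ppp1r37 to Exosc5 lay at -0.33, that from Tmem91 to Zfp36 at -0.29, that from Ovol3 to Cebpg at -0.18 and that from Gpatch1 to Myh14 at -0.036. Lower blocks lay elsewhere on the same chromosome, at -0.71 from Dkk3 to Dnah3 and at -0.60 from Gas2 to Gm4971. The lowest of all, from Cox20 to Capn2 on chromosome 1, lay at -0.73, and that from Fuca1 to Iffo2 on chromosome 4 at -0.64. No test of the difference between these stretches was made, and none of these values sets the proximal stretch apart from them.

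**Figure D4:**
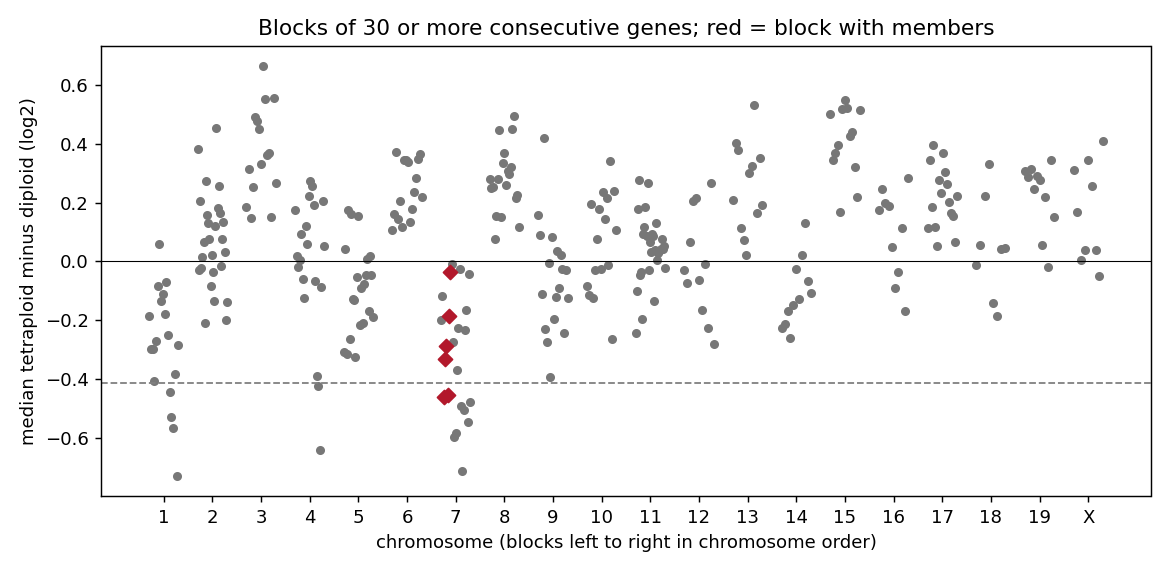
Median tetraploid minus diploid difference (y axis, log2) of 321 blocks of 30 or more consecutive well-expressed genes, by chromosome (x axis); red diamonds are the 6 blocks that hold members and the dashed line is log2(3/4). The red blocks lie between -0.46 and -0.036, with other chromosome 7 blocks below them and all blocks of chromosomes 3 and 15 above 0.

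Members that work in a complex were then set beside partners encoded on other chromosomes, which the choice of members did not touch. Of 136 listed partner genes, 12 on chromosome 7 were left out and 110 others were measured. Limma called 12 of them higher (10.9%, against 6.08% of all and 8.77% of well-expressed genes) and 5 lower (4.55%, against 7.75% and 8.82%). Of the 110, 99 were well expressed, so the well-expressed shares are the closer match. The median difference was 0.29. Of the 12 called higher, 4 lie on chromosome 15 (Eif3d, Eif3h, Senp1 and Pop1), where 22.4% of well-expressed genes were called higher and the median, 0.43, was the highest of all chromosomes. Without diploid array 1 or 2 limma called 0 of the 110, with 28 and 29 at an unadjusted p below 0.05, and without diploid array 3 it called 3. Without tetraploid array 2 it called 6 higher and 3 lower, and without tetraploid array 3, 3 lower. The replicate number as a block left 6 calls. The eBayes trend, either filter on low values and values raised to background gave 28 to 36.

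Of the 110 partners, 33 had a difference below 0. Whether a member differed from its partners was not tested, and both values are given side by side. Eif3k lay at -0.16, while Eif3d (0.89, adjusted p = 0.0292) and Eif3h (0.82, adjusted p = 0.0318) rose and the median of 8 eIF3 genes was 0.31. Eif3d, Eif3h, Eif3l (0.57) and Eif3e (0.49) lie on chromosome 15. The eIF3 partners elsewhere were Eif3a (-0.22), Eif3b (-0.07), Eif3i (-0.39) and Eif3m (0.13), and so the positive median rests on the genes of chromosome 15. Snrpd2 lay at 0.05, while Snrpg rose from 10.77 ± 0.18 to 11.77 ± 0.25 (SD, n = 3; limma adjusted p = 0.0292) and all 5 measured Sm genes had positive differences, with a median of 0.46. Rps19 lay at -0.36, and the 10 small ribosomal subunit genes all lay above 0 with a median of 0.31, of which limma called 0 at the adjusted threshold and 2 at an unadjusted p below 0.05. Tomm40 lay at -0.68 and the 6 TOM partners at a median of 0.23, of which limma called 0, and 1 at an unadjusted p below 0.05. Pop4 lay at -0.42, while Pop1 (1.55, adjusted p = 0.0345) and Rpp30 (1.07, adjusted p = 0.0127) of the same RNase rose and the median of 9 was 0.38. Of these 9, 3 lay below Pop4 without passing the test. They were Pop7 (-0.59), Rpp14 (-0.58) and Rpp21 (-0.56), the last below background on all tetraploid arrays.

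In excision repair, where Ercc1 lay low, its nuclease partner Ercc4 fell as well, from 7.91 ± 0.18 to 5.98 ± 0.65 (SD, n = 3; limma adjusted p = 0.0148). It was below background on all tetraploid arrays, hence at least 1.54-fold lower. The nuclease gene Ercc5 fell by 1.37 (adjusted p = 0.0145), while Ddb2, a damage sensor, passed as higher (adjusted p = 0.0141). Ddb2 was below background on all diploid arrays, hence at least 1.38-fold higher, and its call was lost with values raised to background (adjusted p = 0.0768, the highest of its alternatives, which began at 0.00276). The TFIIH gene Gtf2h4 also passed as higher, and the median of the 17 measured was 0.25. Of 10 NF-kappaB partners, Nfkb2, the partner of Relb, rose by 1.03 (adjusted p = 0.0302). In SUMO conjugation the proteases Senp7 (1.36, adjusted p = 0.0179) and Senp1 (1.09, adjusted p = 0.0152) rose and Senp5 (-0.99, adjusted p = 0.0173) fell. Of 13 genes of mRNA 3' end cleavage, the partners of Sympk, Nudt21 rose by 0.95 (adjusted p = 0.0380), and the median was 0.60.

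Enah, a relative of Vasp, fell by 0.82 (adjusted p = 0.0363). Evl, of the same family, went the other way. It lay at 0.54, with every tetraploid value above every diploid value, but did not pass the test (limma adjusted p = 0.172). Of the 4 Ena/VASP family and partner genes, 3 lay below 0. Abcg1, a cholesterol exporter that can load apolipoprotein E, passed as lower (adjusted p = 0.0499) but was below background on all tetraploid arrays. With values raised to background its difference was 0.018, so no fall can be read from it. Mccc2, of leucine breakdown, rose by 1.18 (adjusted p = 0.0178). Pafah1b1 (-0.19) and Pafah1b2 (-0.25), the other subunits of the Pafah1b3 enzyme, did not pass the test, nor did Akt1 (-0.49, adjusted p = 0.176). Each of the 16 partner genes given here as called with an adjusted p lost its call in at least 2 of its 14 or 15 alternative fits.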

How the data were processed

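The deposited table holds log2 signals, 1 per probe set and array, made by the authors with Affymetrix Expression Console, per the submitters' processing notes. Its background correction, normalization and version are unstated in these sources. Raising 2 to the deposited log2 values gave whole hundredths for 100% of those low enough to tell (tolerance 0.001). Of 28944 probe sets, 21789 carried 1 gene symbol, 1621 several and 5534 none. The probe set with the highest mean was kept per gene, which left 19939. Chromosomes, gene order and promoters came from RefSeq tables of GRCm38.p6, used for order only apart from the printed promoters. Array medians lay between 7.45 and 7.49, so values were used as deposited.

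The fit was limma 3.58.1 in R 4.3.3 (lmFit, eBayes, two-sided), adjusted by Benjamini-Hochberg over all genes. It was tested on simulated data. Arrays give no depth, and their number limits the precision. With 3 arrays a line, the smallest two-sided exact permutation p is 0.1. The members and lists were chosen with earlier results of these data known. Every member is named. Array values are given for the 6 lowest, the 6 highest, the 4 nearest to the ratio and members on which a statement turns. Other genes are named as the 5 lowest and 5 highest of the stretch, and as partners that passed the test, at most 3 a list. How background was defined was decided with the data in view. Uba2 and Pdcd5 were left out. Replicate numbers recur in both lines, and deviations of same-numbered arrays correlated at 0.100, 0.0308 and -0.0461, so the fit had no block. Alternatives were median centring, quantile normalization, values raised to background, 2 filters on low values, the mean of a gene's probe sets, a trend in eBayes, the block, and each array left out.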

Additional observations from a re-analysis of the deposited data

How the results depend on the processing

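The members' median stayed between -0.66 and -0.37 and their number below 0 between 25 and 31 in all fits run. The counts of calls moved more. Fits without 1 array gave 839 to 2522 calls over all genes, 4 to 11 members called lower, 1 to 2 called higher, 7 to 13 intervals holding log2(3/4) and not 0, and 7 to 11 wholly below it. Over these fits the members' median ranged from -0.63 to -0.37, and the shifts of tetraploid arrays 1 to 3 from -0.44 to -0.36, -0.78 to -0.75 and -0.37 to -0.30. Members below 0 numbered 29 to 31. The other genes of the stretch had medians of -0.13 to -0.07, with 9 to 29 called lower and 2 to 7 higher, and partners 0 to 4 lower and 0 to 10 higher. A trend in eBayes gave 17 members lower, and 9 partners lower and 23 higher. Genes above background in 1 line gave 19 members lower and 1 higher, partners 11 and 20, and a stretch median of -0.37. Genes above the median level gave 16 members lower and 1 higher, partners 8 and 20, and a stretch median of -0.34; both filters test fewer genes. Quantile normalization gave a stretch median of -0.023. Values raised to background gave 20 members lower, partners 9 and 27, a stretch median of 0.12 and Abcg1 at 0.018. The probe set on chromosome 7 put Akt2 at 0.029, which was chosen after seeing the data, as was the GC subtraction. The replicate block gave 1647 calls over all genes, 16 other genes of the stretch lower, and partners 2 lower and 4 higher; 2 of 3 tetraploid arrays correlated best with their own number. Apart from these, and from the probe sets and fewer genes named, the cause was not tested.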
